A study of Homo sapiens with 2 samples.

Results

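The genes described here are 10 feedback inhibitors of NF-κB signalling, NFKBIA, NFKBIB, NFKBIE, NFKBIZ, BCL3, TNFAIP3, TNIP1, TNIP2, CYLD and ZC3H12A. They were chosen by name, with earlier results of these data known, and all 10 were among the 16251 genes of the deposited single-cell count matrix. Cells of MDA-MB-453, a human breast cancer line that the labels call triple-negative and wild type, received water (vehicle) or IL1β plus TNFα, 10 ng/ml, in each case for 24 hours. Each condition was 1 culture and 1 droplet library of 3′ transcript ends, in which every molecule carries a unique molecular identifier (UMI). There are no replicates, so no test was made and no p-value is given, and the 95% intervals, all exact, hold the counting error alone and leave out how cultures vary.

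IL1β and TNFα both act through the IκB kinase complex, which marks IκB proteins for destruction and so frees NF-κB dimers to enter the nucleus. NF-κB then switches on the genes of its own inhibitors. Cytoplasmic IκB proteins capture the dimers again, ubiquitin-editing proteins take apart the signal at the receptors, and the nuclease Regnase-1 removes the transcripts that the dimers produced.

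The vehicle library held 2822 cells with a median of 20249 UMIs per cell and the cytokine-treated library 3163 cells with a median of 21508 UMIs. Levels are UMIs summed over a library per 1000000 UMIs (CPM), on totals of 58587996 and 69592446. Keratin, FOXA1, GATA3 and XBP1 transcripts, which mark luminal breast epithelium, lay between 146 and 1457 CPM in both libraries, while ESR1 and PGR had no row. Markers of T, B and NK cells summed to 0.188 and 0.244 CPM, myeloid markers to 0.546 and 1.88 CPM, and basal markers to 0.529 and 4.17 CPM in the vehicle and cytokine-treated libraries. COL1A1, a fibroblast collagen, was at 20.9 and 20.1 CPM, and PECAM1, of endothelium, had 0 and 11 UMIs. The other fibroblast and endothelial markers looked for, COL1A2, DCN, VWF and CDH5, had no row. G1 cells made up 36.6% of vehicle and 88.5% of cytokine-treated cells by the deposited phase calls. Fewer cells of a phase and less RNA per cell cannot be told apart in a sum over a library, so values within phases are given further on.

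Because NF-κB acts on these genes through short DNA sites, the windows around their transcription starts are shown first. RefSeq windows on GRCh38.p14, each of 250 bases before and 50 bases after a start, were at hand for 9 of the 10 genes, all but NFKBIE, and gave 14 windows for 14 starts. Windows were searched on both strands for the κB consensus, a pattern of 10 bases. It was present in 9 of the 14 windows and in 7 of the 9 genes. Of all 35116 promoter windows in the reference 5.91% held a match. Over the measured genes with a window, 17.5% of the 286 with a cytokine response of 2-fold or more upward and 8.30% of the 7051 others had a match in any window. The stretches below hold the matches that lie wholly before a start. They are read 5′ to 3′ along the gene's strand, with the matching bases in capitals, and are shown because their distance from the start can be set beside each gene's cytokine response.
TNFAIP3, match at -67 to -58, chr6:137867172-137867221 (+): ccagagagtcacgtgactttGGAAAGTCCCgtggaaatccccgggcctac
TNFAIP3, match at -55 to -46, chr6:137867184-137867233 (+): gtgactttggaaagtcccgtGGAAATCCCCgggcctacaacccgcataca
NFKBIA, match at -81 to -72, chr14:35404801-35404850 (-): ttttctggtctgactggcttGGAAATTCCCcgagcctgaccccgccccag
NFKBIZ, first start, match at -223 to -214, chr3:101827747-101827796 (+): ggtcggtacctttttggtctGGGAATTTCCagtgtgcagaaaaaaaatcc
NFKBIZ, second start, match at -239 to -230, chr3:101849264-101849304 (+): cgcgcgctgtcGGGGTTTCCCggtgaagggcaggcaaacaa
TNIP1, second start, match at -42 to -33, chr5:151081047-151081096 (-): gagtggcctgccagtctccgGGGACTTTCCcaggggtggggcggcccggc
CYLD, second start, match at -189 to -180, chr16:50741877-50741926 (+): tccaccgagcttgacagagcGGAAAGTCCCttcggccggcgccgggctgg
NFKBIB, second start, match at -28 to -19, chr19:38899921-38899968 (+): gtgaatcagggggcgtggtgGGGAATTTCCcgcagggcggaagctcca

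TNFAIP3 had 2 matches, side by side and not overlapping, at -67 to -58 and -55 to -46. NFKBIA had 1 match, at -81 to -72. The NFKBIB match overlapped a further match on the other strand 1 base on, at -27 to -18, and the match of the second NFKBIZ start was found on both strands at the same bases. BCL3 had a match at 3 to 12 bases after its start and the third CYLD start had 1 at bases 1 to 10, inside the transcribed part. No match was found in the single windows of ZC3H12A and TNIP2, which says only that the letters were not in those windows. A match is a description of letters and not evidence of binding.

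**Figure D1:**
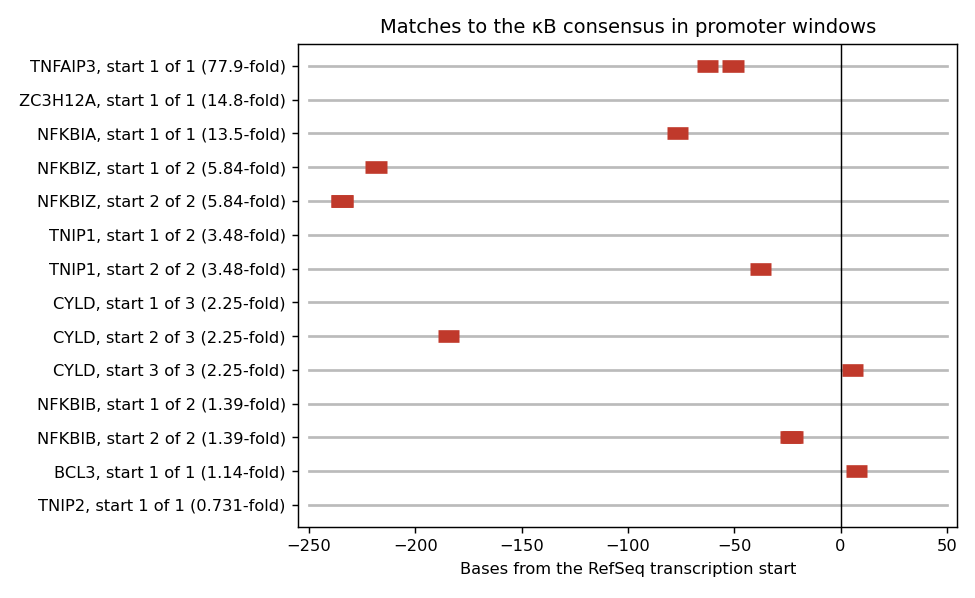
Matches to the κB consensus (red) in the 14 promoter windows of 9 genes, by bases from the RefSeq start, with each gene's fold difference between cytokine-treated and vehicle libraries in brackets. TNFAIP3 has 2 matches before its start, and the windows of ZC3H12A and TNIP2 have none.

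Genes with and without a match both covered a wide range of responses. ZC3H12A, without a match, was 14.8-fold higher after the cytokines, while NFKBIB, with a match at -28 to -19, was 1.39-fold higher.

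Of the 10 genes, all were measured, meaning that either library reached CPM 5, and 7 were higher after the cytokines by 2-fold or more with the log2 interval above 0. The same rule called 4.29% of all 9192 measured genes higher and 7.48% lower, and none of the 10 genes was called lower. NFKBIZ and TNFAIP3 reached CPM 5 only in the cytokine-treated library, so that passing the limit all but fixed their direction, and 5 of the other 8 were called. The median log2 ratio of cytokine-treated over vehicle CPM was 1.92 over all 10, while that of all measured genes was -0.20. The 10 genes were chosen with earlier results of these data known, so these shares and medians are a description. The 7 were TNFAIP3, ZC3H12A, NFKBIA, NFKBIZ, NFKBIE, TNIP1 and CYLD, in order of fold difference. The intervals of ZC3H12A and NFKBIA overlapped, as did those of NFKBIE and TNIP1, and the other neighbours in that order were apart. NFKBIB, BCL3 and TNIP2 stayed within 2-fold.

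**Figure D2:**
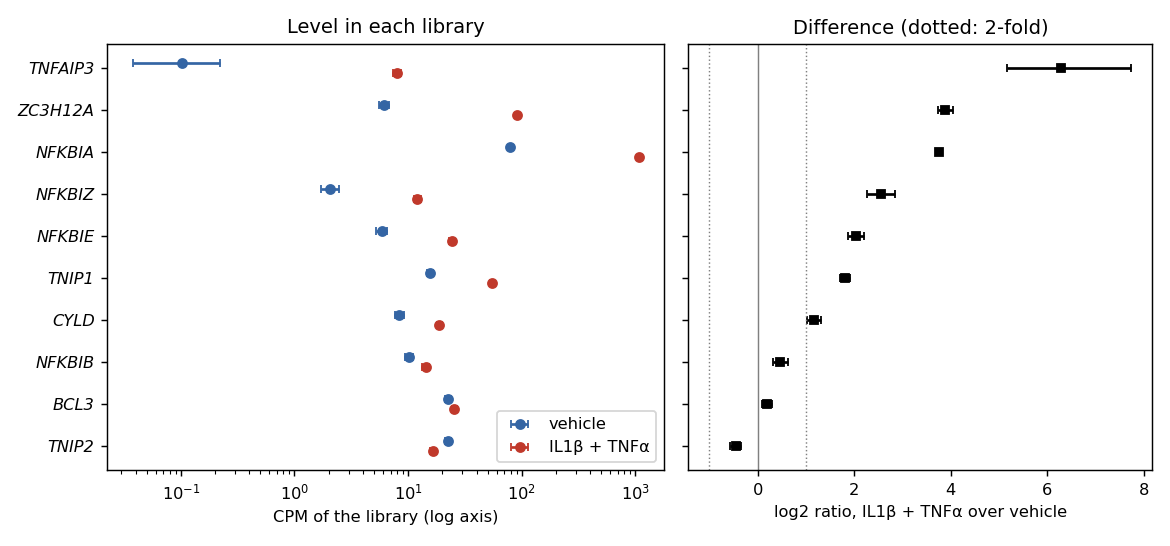
Level of each gene in the vehicle (blue) and IL1β + TNFα (red) libraries in CPM on a log axis (left) and the log2 ratio of both (right), with exact 95% intervals for counting error. From the top, 7 genes lie past the dotted 2-fold line, CYLD just past it with an interval of 1.02 to 1.32, and TNIP2 is the only gene with an interval below 0.

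The cytoplasmic IκB proteins hold NF-κB dimers outside the nucleus. NFKBIA, which encodes IκBα, the inhibitor that is degraded and made anew most rapidly, had 4649 UMIs in the vehicle library (79.4 CPM, 77.1 to 81.7) and 74360 UMIs in the cytokine-treated library (1069 CPM, 1061 to 1076). This was a 13.5-fold difference (13.1 to 13.9). NFKBIE, which encodes IκBε, a slower inhibitor, stood at 5.87 CPM (5.27 to 6.53) in vehicle and 24.1 CPM (23.0 to 25.3) in cytokine-treated cells, 4.11-fold higher (3.66 to 4.63). NFKBIB, which encodes IκBβ, stood at 10.3 CPM (9.47 to 11.1) and 14.3 CPM (13.4 to 15.2), with a log2 ratio of 0.47 (0.32 to 0.62). Thus 2 of the 3 cytoplasmic inhibitors were past 2-fold, and their fold differences did not overlap. NFKBIA lies on chromosome 14 from 35401079 to 35404749 (ENSG00000100906), NFKBIB on chromosome 19 from 38899700 to 38908893 (ENSG00000104825) and NFKBIE on chromosome 6 from 44258166 to 44265788 (ENSG00000146232), in GRCh38 by GENCODE.

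The atypical IκB proteins work in the nucleus, where they bind DNA-bound p50 or p52 and can activate as well as repress. NFKBIZ, which encodes IκBζ, had 121 UMIs in the vehicle library (2.07 CPM, 1.71 to 2.47) and 840 in the cytokine-treated library (12.1 CPM, 11.3 to 12.9), 5.84-fold higher (4.83 to 7.13). BCL3, the other member of this class, was at 22.4 CPM (21.2 to 23.7) and 25.5 CPM (24.4 to 26.8), and its log2 ratio was 0.19 (0.08 to 0.29). The nuclear pair thus differed, with NFKBIZ past 2-fold and BCL3 close to its vehicle level. NFKBIZ lies on chromosome 3 from 101827991 to 101861022 (ENSG00000144802) and overlaps NXPE3 on the same strand in that annotation. How reads in shared bases were counted was not checked. BCL3 lies on chromosome 19 from 44747705 to 44760044 (ENSG00000069399).

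The ubiquitin-editing group acts on the signalling complexes at the TNF and IL1 receptors. TNFAIP3 encodes A20, which removes and adds ubiquitin chains there, and had 6 UMIs in the whole vehicle library (0.102 CPM, 0.038 to 0.223) against 555 in the cytokine-treated library (7.98 CPM, 7.33 to 8.67). Its fold difference of 77.9 was the highest of the 10 genes and also the least certain, with an interval of 35.6 to 213. TNIP1, which encodes the A20-binding adaptor ABIN-1, stood at 15.6 CPM (14.6 to 16.7) and 54.4 CPM (52.7 to 56.2), 3.48-fold higher (3.24 to 3.75). CYLD, a deubiquitinase for linear and K63-linked chains, stood at 8.38 CPM (7.66 to 9.16) and 18.8 CPM (17.8 to 19.9), 2.25-fold higher (2.02 to 2.499), just past the limit. TNIP2, which encodes ABIN-2, went the other way, at 22.4 CPM (21.2 to 23.7) in vehicle and 16.4 CPM (15.5 to 17.4) in cytokine-treated cells, a log2 ratio of -0.45 (-0.57 to -0.34). Its ratio lay below the median of all measured genes (-0.20) on the same scale. The genes for the related adaptors TNIP1 and TNIP2 therefore differed in direction in these libraries. TNFAIP3 lies on chromosome 6 from 137867214 to 137883314 (ENSG00000118503), TNIP1 on chromosome 5 from 151029945 to 151093577 (ENSG00000145901), TNIP2 on chromosome 4 from 2741648 to 2756342 (ENSG00000168884) and CYLD on chromosome 16 from 50742050 to 50801935 (ENSG00000083799).

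ZC3H12A encodes Regnase-1, an endonuclease that cuts stem-loops in the transcripts of inflammatory genes. It had 360 UMIs in the vehicle library (6.14 CPM, 5.53 to 6.81) and 6314 in the cytokine-treated library (90.7 CPM, 88.5 to 93.0), 14.8-fold higher (13.3 to 16.5). It lies on chromosome 1 from 37474580 to 37484377 (ENSG00000163874).

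The response was next read cell by cell. Cells were thinned at random to 15000 UMIs each, which left 2586 vehicle and 3033 cytokine-treated cells and left out 236 and 130 shallower ones. NFKBIA was present in 65.8% of vehicle cells (64.0% to 67.6%; 74.7% unthinned) and in all but 1 of the 3033 cytokine-treated cells (99.97%; 99.97% unthinned). Its median was 1 UMI per vehicle cell and 15 UMIs per cytokine-treated cell. The middle of the treated cells, from the 10th to the 90th percentile, spanned 7 to 26 UMIs and that of the vehicle cells 0 to 3 UMIs, so these ranges did not overlap. ZC3H12A was present in 9.13% of vehicle cells (11.9% unthinned) and 66.9% of cytokine-treated cells (78.4% unthinned). TNIP1 was present in 20.7% and 54.7% of cells (27.6% and 66.0% unthinned).

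The remaining genes were each absent from most thinned cells of either library. NFKBIE was present in 9.01% of vehicle and 29.3% of cytokine-treated cells (11.6% and 39.3% unthinned), CYLD in 11.6% and 24.4% (15.6% and 32.9%), and NFKBIZ in 3.13% and 15.7% (4.15% and 21.8%). BCL3 was present in 26.5% and 30.9% (35.2% and 40.0% unthinned), NFKBIB in 14.3% and 19.1% (18.9% and 26.4%), and TNIP2 in 28.7% and 21.8% (36.9% and 30.4%). TNFAIP3 was present in 4 vehicle cells (0.155%, 0.042% to 0.396%; 0.213% unthinned) and 351 cytokine-treated cells (11.6%, 10.5% to 12.8%; 15.4% unthinned). No cell type that lacks these genes was in the cultures, so the share of cells that free RNA alone would give could not be measured.

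Cytokine-treated cells held more of the 10 transcripts at once. A vehicle cell had 1.89 ± 1.08 (SD over 2586 cells) of the 10 with a UMI, with a median of 2 and a range of 0 to 6. A cytokine-treated cell had 3.74 ± 1.31 (SD over 3033 cells), with a median of 4 and a range of 1 to 9. In vehicle 8.31% of cells had none of them and 26.3% had 3 or more, while in the cytokine-treated library no cell had none and 83.5% had 3 or more. The distributions overlapped at 1 to 6 genes per cell.

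**Figure D3:**
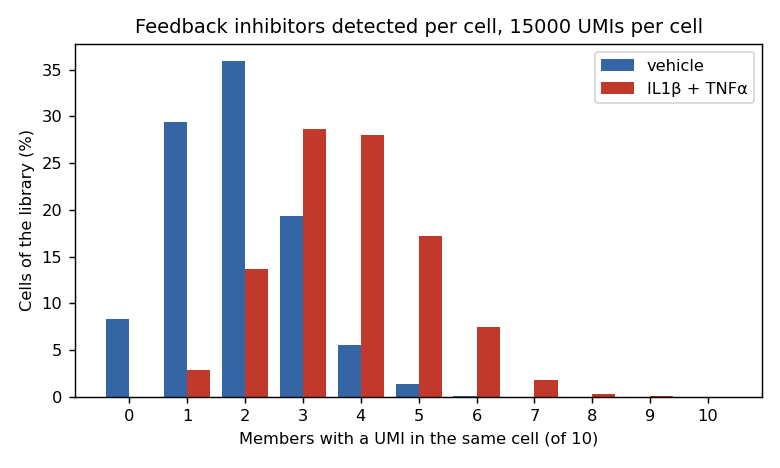
Share of the cells of each library (vertical axis, %) by the number of the 10 genes with at least 1 UMI in that cell (horizontal axis), at 15000 UMIs per cell, vehicle in blue and IL1β + TNFα in red. Vehicle cells centre on 2 genes and cytokine-treated cells on 3 and 4, with no treated cell at 0.

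The spread between treated cells was read from the variance of thinned counts over their mean, which is 1 for pure counting noise. For most sparse transcripts it lay near 1. Each gene was therefore set beside genes within a narrow range of its own CPM, and values were not ranked between the 10 genes. ZC3H12A had 1.43, above 91.7% of genes of like CPM, and TNIP1 had 1.24, above 87.4%. The highest treated cell had 15 thinned TNIP1 UMIs against a 90th percentile of 2, and its part in the TNIP1 value was not tested. NFKBIZ had 1.103, BCL3 1.12 and TNFAIP3 1.06, above 89.9%, 88.9% and 80.7% of their like. NFKBIE (1.07) and NFKBIA (3.63) were above 73.1% and 72.0%, and CYLD, NFKBIB and TNIP2 above 48.8%, 37.9% and 32.1%. In vehicle cells NFKBIA had 1.58, above 97.1% of genes of like CPM. The highest of these cells had 35 UMIs and the next had 9, and the part of that cell in the value was not tested. TDO2, the tryptophan dioxygenase gene that the study is about, had 20.8 in cytokine-treated cells, above all 91 genes of like CPM. In vehicle cells TDO2 had 7.85 at a mean of 0.134 UMIs per cell, so a sparse transcript can lie far from 1.

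Because the treated library had far more G1 cells, each gene was compared within the deposited phase calls. Vehicle and cytokine-treated cells numbered 1032 and 2799 in G1, 1273 and 324 in S and 517 and 40 in G2M. In each phase 7 of the 10 genes were called higher and none lower. The same rule called 4.44% of measured genes higher in G1, 3.22% in S and 3.70% in G2M. In every phase NFKBIZ and TNFAIP3 reached CPM 5 only in the cytokine-treated cells, which all but fixed their direction. In G1 and S the genes called among the 10 were the same 7 as over all cells. In G2M NFKBIB was called (19 UMIs in the cytokine-treated cells, log2 ratio 1.29, 0.50 to 2.01) and CYLD was not (13 UMIs, log2 ratio 0.95, -0.01 to 1.80).

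NFKBIA stood at 75.9, 86.2 and 68.7 CPM in vehicle G1, S and G2M cells and at 1082, 944 and 1140 CPM in the cytokine-treated cells of those phases, all treated values above all vehicle values. ZC3H12A had log2 ratios of 3.91, 3.98 and 3.76 in G1, S and G2M, nearly the same value in each. TNIP1 had 1.87, 1.42 and 2.23, NFKBIE 1.90, 2.11 and 2.49, and NFKBIZ 2.98, 2.68 and 2.63. TNFAIP3 had 1 UMI in vehicle and 498 UMIs in cytokine-treated G1 cells, 5 and 52 UMIs in S, and 0 and 5 UMIs in G2M. The log2 ratios of BCL3 were 0.05 (-0.10 to 0.20) in G1 and 0.01 (-0.26 to 0.27) in S, so the small difference seen over all cells was not detectable within either phase. TNIP2 had -0.29 (-0.46 to -0.12) in G1 and -0.66 (-0.97 to -0.36) in S, and 0.30 (-0.37 to 0.90) in G2M, where 24 UMIs were counted in the treated cells. Differences between phases were not tested.

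The deposited table also gave each cell 1 of 6 cluster numbers, which were made from genes of these cells, so levels by cluster are a description. The 7 genes were higher in cytokine-treated cells in all 6 clusters with intervals apart. NFKBIA was between 11.6-fold and 16.7-fold higher by cluster, ZC3H12A between 13.0-fold and 16.4-fold, NFKBIZ between 5.26-fold and 7.35-fold, and NFKBIE between 3.65-fold and 5.11-fold. TNIP1 ranged from 3.12-fold to 3.87-fold and CYLD from 1.97-fold to 2.57-fold. TNFAIP3 had no UMI in the vehicle cells of 2 clusters. NFKBIB was above its vehicle level in 6 of 6 clusters, with intervals apart in 3, and BCL3 was above it in 5 with intervals apart in none. TNIP2 was below its vehicle level in 6 of 6 clusters, with intervals apart in 3.

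Among cytokine-treated cells NFKBIA was highest in cluster 3 (1289 CPM) and lowest in cluster 4 (828 CPM), a ratio of 1.56 (1.51 to 1.60). In vehicle cells clusters 0 and 3 had the highest NFKBIA, at 98.7 and 101 CPM against 68.3 to 76.1 CPM in the other clusters. Cluster 5 was lowest there, at 68.3 CPM, but stood at 1140 CPM among treated cells, as did cluster 0. Median mitochondrial shares of treated cells were 6.22% and 5.97% in clusters 0 and 3. They were 7.31% and 6.94% in clusters 1 and 4, where NFKBIA was lowest. Clusters 2 and 5 had 6.41% and 6.59%, with NFKBIA at 973 and 1140 CPM. The part of these shares in the difference between clusters was not tested. NFKBIZ went in another order, highest in cluster 2 (15.2 CPM) and lowest in cluster 3 (8.06 CPM). Of treated cells in cluster 2, 89.8% were called S. Cluster 1 stood at 14.5 CPM with an overlapping interval, and 97.7% of its treated cells were called G1. NFKBIB was highest in cluster 5 in both libraries, at 14.9 and 24.2 CPM. ZC3H12A varied least, from 85.9 to 96.2 CPM across clusters of treated cells.

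**Figure D4:**
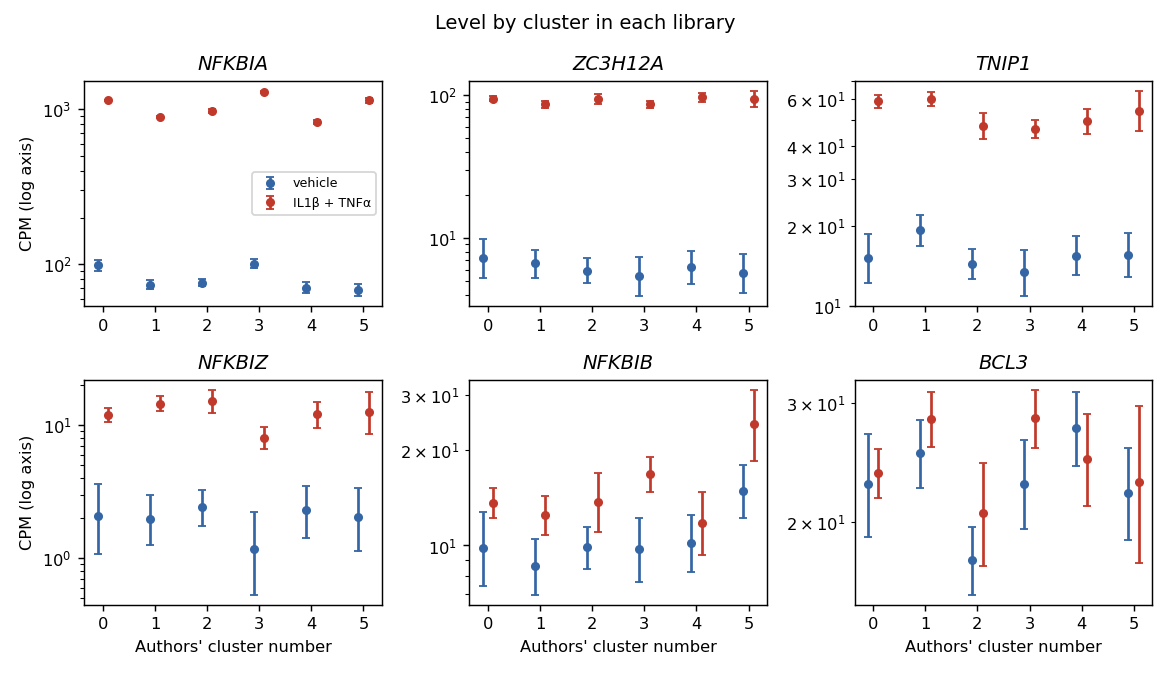
Level of 6 genes in CPM (log axis, a different range in each panel) by the authors' cluster number, vehicle in blue and IL1β + TNFα in red, with exact 95% Poisson intervals for counting error. NFKBIA, ZC3H12A, TNIP1 and NFKBIZ are apart in every cluster, while the intervals of BCL3 overlap in all 6.

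Correlations between the 10 genes from cell to cell were low as measured. Pearson r of log-normalized values across all 3163 treated cells had a median of 0.015 over the 45 pairs and ranged from -0.040 to 0.099. Of the pairs 27 were above 0. In the 2822 vehicle cells the median was -0.001, the range -0.043 to 0.040, and 20 pairs were above 0. The highest values in treated cells were 0.099 for NFKBIA with ZC3H12A, 0.088 for NFKBIA with BCL3, 0.084 for NFKBIZ with ZC3H12A and 0.071 for NFKBIA with TNFAIP3. These are small values in sparse counts, from cells of 1 library that share its depth, and none is read as a finding. Counting noise holds r down where a transcript averages about 1 UMI per cell or fewer, so low values do not show that the genes vary apart. Counting variance was then taken off for the 5 genes with variance over mean of at least 1.1. This step was added after the data were seen. Corrected in this way, r of thinned counts was 0.460 for NFKBIZ with TNIP1 (0.061 uncorrected) and 0.299 for NFKBIA with BCL3 (0.083 uncorrected). For ZC3H12A it was 0.261 with NFKBIZ and 0.174 with NFKBIA. It was -0.256 for BCL3 with ZC3H12A, and these values rest on small excess variances and have no error attached. The background is uncorrected r over all 3163 treated cells, to be set beside the uncorrected pairs only. For NFKBIA with the 4378 other genes at CPM 20 or more it had a median of 0.021 and a 1st to 99th percentile range of -0.188 to 0.306. The 99th percentile was 0.068 for ZC3H12A, 0.054 for BCL3 and NFKBIZ, and 0.058 for TNFAIP3. Each of the highest uncorrected pair values lay over the 99th percentile of the gene named second. Those with NFKBIA lay under that of NFKBIA.

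**Figure D5:**
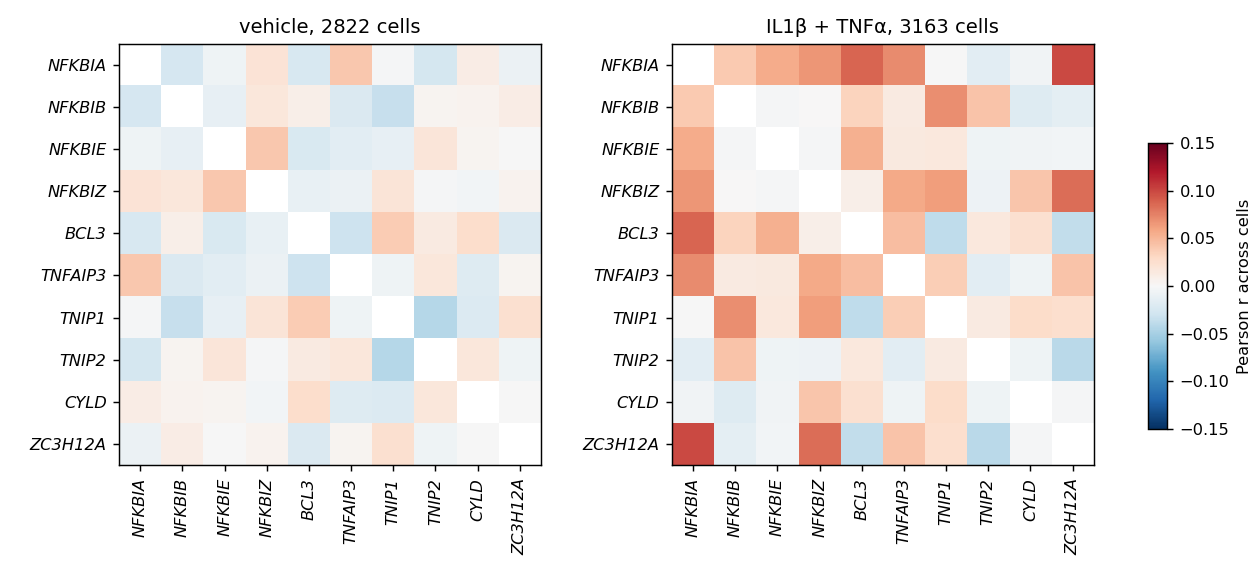
Pearson r across cells for each pair of the 10 genes in vehicle cells (left) and IL1β + TNFα treated cells (right), on a colour scale from -0.15 (blue) to 0.15 (red). The deepest red in treated cells is NFKBIA with ZC3H12A at 0.099, and no pair reaches 0.1 in either library.

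The r of TDO2 with the 10 genes in treated cells lay between -0.068 (BCL3) and 0.027 (ZC3H12A). The 3 genes of highest r with NFKBIA in treated cells, out of 4378 outside the set, were ENO1, a glycolytic enolase gene (r = 0.469), PSMA6, a proteasome subunit gene (0.441), and ANXA2, an annexin gene (0.414). Abundant transcripts can reach higher r than sparse ones, so these are not set against the pairs above. NFKBIA had r = -0.286 with the percent of mitochondrial UMIs and -0.010 with depth over the same 3163 cells, and the part of the mitochondrial share in these values was not tested. PSMA6 lies 83.6 kb from NFKBIA on chromosome 14. It stood at 279 CPM in vehicle and 628 CPM in cytokine-treated cells, and its r with NFKBIA was 0.174 among vehicle cells. The other 12 genes within 1 Mb had r with NFKBIA between -0.050 and 0.161 in treated cells. This window was looked at after the PSMA6 value was seen.

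The closest genes were also read for the other 4 inhibitors at CPM 20 or more in the treated library. TNIP1 was closest to CSTB, the cystatin B gene (r = 0.176), SOD2, the NF-κB-induced mitochondrial superoxide dismutase gene (0.169), and SAA1, an acute-phase gene (0.144). ZC3H12A was closest to SNPH (0.159), FAM110A (0.148) and CXCL8, the neutrophil chemokine gene (0.147). NFKBIE was closest to TNFRSF12A (0.114), ANKRD22 (0.102) and TMSB4X (0.098), and BCL3 to IRF1, an interferon regulatory factor gene (0.118), S100A14 (0.099) and CYP1B1 (0.094). These are values over 3163 cells of 1 library and are given as a description.

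The genes around the inhibitors were read by role. Of the 5 genes for NF-κB subunits, 3 were at least 2-fold higher and 2 were not, beside the 4.29% of all measured genes. All 3 reached CPM 5 only in the treated library. RELB, a partner of p52, went from 17 to 1972 UMIs (0.290 to 28.3 CPM; log2 ratio 6.61, 5.93 to 7.39), and NFKB2, which encodes the p52 precursor p100, itself an IκB-like inhibitor, from 3.77 to 42.6 CPM (3.50). REL stood at 3.29 and 8.56 CPM (1.38). NFKB1 and RELA, the p105/p50 and p65 genes, were at 21.8 and 23.4 CPM and at 22.3 and 21.3 CPM, with log2 ratios of 0.10 (-0.004 to 0.21) and -0.07 (-0.18 to 0.04). NFKBIL1, an IκB-like gene, was the only measured gene of the further IκB family and had a log2 ratio of 0.13.

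Kinases that act on the inhibitors and partners of the inhibitors mostly stayed within 2-fold, as did most measured genes. Among 11 measured kinases and their adaptors from the receptors to IκB, 1 was higher (4.29% of all measured genes), 1 was lower (7.48%) and 9 were neither, with a median log2 ratio of -0.33. IKBKE, an IKK-related kinase gene, was higher (12.6 and 31.7 CPM, log2 ratio 1.33), and IRAK1, a kinase gene of the IL1 receptor path, was lower (73.6 and 35.0 CPM, log2 ratio -1.07). That call was lost with TMM (-0.90) and median-of-ratios scaling (-0.88), which shift every ratio upward. CHUK, which encodes IKKα, and RIPK1, of the TNF receptor complex, had log2 ratios of -0.86 and -0.52. None of 9 measured partners of A20, the ABIN proteins and CYLD passed 2-fold (median -0.31). The deubiquitinase genes OTUD7B and OTULIN had -0.61 and -0.60, and the ubiquitin ligase genes RBCK1 and ITCH -0.37 and -0.35. None of 5 measured relatives and partners of Regnase-1 passed it either (median -0.36), with UPF1 at -0.71, RC3H2 at -0.44, N4BP1 at -0.36 and MALT1, the protease that cleaves Regnase-1, at -0.35. These medians lie close to the -0.20 of all measured genes. With 4.29% of those called higher and 7.48% lower, few or no calls in lists of this size are no result about them.

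Transcripts downstream of individual inhibitors were also read. Of 4 measured transcripts known as Regnase-1 targets, 3 were higher and 1 was not, beside 4.29% of all measured genes called higher. Their median log2 ratio was 1.37, but CXCL2 and REL counted as measured only through the treated library. PTGS2, CXCL1 and CXCL3, also on this list, had no row. CXCL2 had 3 and 809 UMIs (log2 ratio 7.83, 6.27 to 10.11), REL is given above, and IER3 had 127 and 325 CPM (1.36). TFRC, the transferrin receptor gene, had 135 and 101 CPM (-0.41; -0.08 within G1 cells and -0.23 with TMM scaling). Across treated cells r with ZC3H12A was 0.100 for CXCL2, 0.098 for IER3, 0.026 for REL and 0.027 for TFRC. Of the genes known to depend on IκBζ in epithelium, all 5 that were measured were higher, beside the 4.29% of all measured genes. All but S100A9 counted as measured only through the treated library, which nearly fixed the call. S100A8 and S100A9, the calprotectin genes, had log2 ratios of 11.12 and 9.50, S100A7 10.25 (from 1 vehicle UMI, 7.77 to 15.56) and CXCL8 8.64, and LCN2 had 0 UMIs in vehicle and 3064 in cytokine-treated cells. Across treated cells r of NFKBIZ with the 7 of these genes in the matrix was between 0.007 and 0.073.

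Other brakes on cytokine signalling were read as well. Of 9 measured, 3 were higher and 6 were not, beside 4.29% of all measured genes called higher. Their median log2 ratio was 0.39, and BIRC3 and SOCS1 counted as measured only through the treated library. BIRC3, a ubiquitin ligase gene of the TNF receptor complex, went from 0.410 to 39.1 CPM (log2 ratio 6.58), ZFP36, which encodes the mRNA-destabilizing tristetraprolin, from 45.9 to 99.5 CPM (1.12), and SOCS1, a brake on JAK-STAT signalling, from 4.04 to 8.52 CPM (1.07; 0.88 within G1 cells, under 2-fold). TRAFD1 had a log2 ratio of 0.59.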

How the data were processed

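Droplet 3′ libraries of 1 vehicle and 1 cytokine-treated culture were analysed, grouped by the sample labels and the deposited cell table. Raw UMI counts per gene and cell were deposited, which the authors made in Cell Ranger 3.1.0 against GRCh38. Per the study's methods 3000 cells were collected. With Seurat 4.0.4 the authors removed cells with at least 50000 UMIs, at most 3000 or at least 5000 genes, or at least 15% mitochondrial UMIs, and genes seen in fewer than 10 cells, and 5985 cells are in the files. Such limits can remove unequal shares of 2 cultures. The deposited table also gives the percent of mitochondrial UMIs, the phase and the cluster of each cell, and how the clusters were made is not given in the sources used here. No doublet caller was run and no doublets were removed here, and 8 barcodes occurred in both libraries.

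UMIs were summed per library (CPM). Ratios have exact conditional binomial intervals, CPM exact Poisson intervals and shares exact Clopper-Pearson intervals. A gene was measured at CPM 5 and called at 2-fold with its interval on one side of equality. Cells were thinned to 15000 UMIs with a fixed random seed. Spread was the variance over the mean of thinned counts, beside genes of like CPM. Correlations used ln(1 + 10000 × fraction of a cell's UMIs). Promoter windows came from RefSeq (GRCh38.p14) and gene positions from GENCODE. Named were all 10 genes, up to 4 measured genes with the largest absolute log2 ratio of each further list, the 3 closest genes of each of the 10 at CPM 20 or more in the treated library, and TDO2. RELA, LCN2 and genes near NFKBIA were named after their values were seen. The members and lists were chosen with earlier results of these data known. Alternatives were TMM (edgeR 4.0.16) or median-of-ratios (DESeq2 1.42.0) scaling, totals without ribosomal protein and mitochondrial genes, G1 cells alone, a 10% mitochondrial limit, means of per-cell CPM, vehicle phase shares in both libraries, measured limits of CPM 1 and 20 or none, 7500 UMIs, no thinning and at least 2 UMIs. The scripts, in Python 3.11.15 with numpy 2.4.6 and scipy 1.17.1, were tested on simulated data.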

Additional observations from a re-analysis of the deposited data

How the results depend on the processing

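With 1 library per condition the spread between cultures is unknown and limits every difference. The median log2 ratio of the 10 genes was 2.10 with TMM and 2.11 with median-of-ratios scaling instead of 1.92, and the median of all measured genes shifted from -0.20 to -0.01 and 0.00. Requiring CPM 20 left 6 genes measured and 4 called higher, because NFKBIZ, TNFAIP3, CYLD and NFKBIB were no longer measured. The difference in genes detected per cell, 1.85 at 15000 UMIs, was 1.55 at 7500 UMIs, 2.14 without thinning and 1.36 when 2 UMIs were required. Under each other alternative 7 genes were called higher and 0 lower. The log2 ratio of BCL3 ranged from 0.05 to 0.38, that of TNIP2 from -0.51 to -0.26 and that of TNFAIP3 from 6.18 to 7.34. Over all genes, 394 were called higher and 688 lower. The lower calls numbered 485 with TMM, 478 with median-of-ratios scaling, 399 in G1 cells and 122 with vehicle phase shares, and the share of calls that were higher went from 36.4% to 52.4%, 53.5%, 50.1% and 72.5%. Calls were 660 and 1060 at CPM 1, 221 and 336 at CPM 20, and 1088 and 1496 without a limit. Correlations corrected for counting noise, chosen after seeing the data, covered the 5 genes with variance over mean of at least 1.1 and ranged from -0.256 to 0.460. No paired analysis was possible because each condition is 1 library.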

Other observations

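Several relatives of the feedback inhibitors lay under the level taken as measured and were looked at after their values were seen. TNIP3, which encodes ABIN-3, had 1 UMI in the vehicle and 32 in the cytokine-treated library (log2 ratio 4.75, 2.17 to 10.10). ZC3H12C, a gene of the Regnase family, had 1 and 75 UMIs (5.98, 3.46 to 11.30). MAP3K14, which encodes the NF-κB-inducing kinase of the noncanonical path, stood at 1.502 and 4.08 CPM (1.44, 1.09 to 1.80). IL6, a Regnase-1 target transcript, had 9 and 157 UMIs (3.88, 2.91 to 5.03). NFKBID, which encodes the nuclear inhibitor IκBNS, stood at 4.63 and 4.47 CPM (-0.05, -0.29 to 0.19). PDLIM2 and IL1R2, further brakes on this signalling, had lower values in the cytokine-treated library, 2.65 and 1.04 CPM and 4.16 and 2.07 CPM.

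A few vehicle cells had NFKBIA at the level of treated cells. At 15000 UMIs per cell, 6 of 2586 vehicle cells (0.232%) had 7 or more NFKBIA UMIs, the 10th percentile of treated cells. All 6 were called S phase, as were 45.1% of all vehicle cells before thinning. The highest had 35 UMIs, above the treated median of 15, and the next had 9. Before thinning that highest cell held 60 NFKBIA UMIs, 14 of the 16 CXCL8 UMIs of the whole vehicle library and 2 BIRC3 UMIs, with 0 UMIs of TNFAIP3, ZC3H12A, TDO2, S100A8 and S100A9. This cell was picked after its values were seen.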
